A study of Homo sapiens with 4 samples.

Results

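A group of 7 genes with germline-restricted expression were examined in A549 and H1299, 2 human lung carcinoma lines, each transfected with a scramble siRNA or with siRNA against hMOF. They were taken by name, as all probe sets that the array annotation assigns to exactly 1 of CTAG2, MAGEA1, MAGEA4, MAGEA12, GTSF1, TDRD9 and TDRD12. That gave 8 probe sets of 54613 that are not controls, for 7 of 19775 named genes. The genes were selected on their signal difference between the lines in these same arrays, so that difference is described below without a test, and only their response to the siRNA was tested. A549 is a lung adenocarcinoma line and H1299 a line from a lymph node metastasis of a lung carcinoma, and hMOF, encoded by KAT8, is a histone H4 acetyltransferase. Each of the 4 groups (A549 with scramble, A549 with hMOF siRNA, H1299 with scramble, H1299 with hMOF siRNA) had 1 array. All 4 shared the same serum-supplemented medium and lipid transfection reagent. The labels state neither the time after transfection nor how many cultures each array stands for.

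Cancer-testis genes are transcribed in the male germ line, are silent in most adult somatic tissue and reappear in tumours, where their products can be seen by T cells. Many lie on the X chromosome in families of near-identical copies, and DNA methylation at their CpG-rich start regions is a known layer of their silencing. The piRNA pathway works in the same germ cells. PIWI proteins carry short piRNAs that recognise transposon transcripts, and Tudor-domain proteins (the TDRD family) and GTSF1 act with the PIWI proteins in processing and silencing. Lung epithelium is not a usual site of either programme.

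The start regions of the members were read first, from RefSeq on GRCh38.p14. Of the 7 members, 5 had an entry, with 10 start sites in all, and each window ran from 250 bases before the start to 50 after it. CTAG2 and MAGEA1 are named only. The 3 piRNA-pathway genes lie on different autosomes and are shown because CpG sites differ between them, with each CG in capitals.

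GTSF1, chr12:54473603-54473852, minus strand: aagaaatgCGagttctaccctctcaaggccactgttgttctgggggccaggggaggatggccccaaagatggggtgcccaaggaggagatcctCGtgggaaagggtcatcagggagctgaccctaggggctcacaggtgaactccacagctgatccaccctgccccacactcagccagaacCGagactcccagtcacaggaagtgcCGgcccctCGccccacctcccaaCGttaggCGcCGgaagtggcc

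TDRD9, chr14:103928206-103928455, plus strand: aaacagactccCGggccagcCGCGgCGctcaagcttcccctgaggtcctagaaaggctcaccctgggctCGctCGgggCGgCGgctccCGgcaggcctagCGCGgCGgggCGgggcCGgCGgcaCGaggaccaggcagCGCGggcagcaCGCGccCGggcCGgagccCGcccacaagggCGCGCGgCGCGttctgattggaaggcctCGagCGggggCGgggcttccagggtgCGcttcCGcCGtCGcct

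TDRD12, chr19:32719517-32719766, plus strand: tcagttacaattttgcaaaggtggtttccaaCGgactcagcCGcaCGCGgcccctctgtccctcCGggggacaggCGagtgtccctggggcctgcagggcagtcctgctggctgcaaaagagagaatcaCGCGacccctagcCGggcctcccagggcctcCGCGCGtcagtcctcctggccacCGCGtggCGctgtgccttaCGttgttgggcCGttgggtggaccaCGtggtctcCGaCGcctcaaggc

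Over the whole window, GTSF1 held 10 CG pairs, TDRD12 26 and TDRD9 41. The median of all 35116 start windows was 14, and 93.3% of windows held fewer than that of TDRD9. MAGEA4 had between 10 and 15 at its 5 starts and MAGEA12 9 and 15 at its 2, close to the median. GC content ran from 60.7% in 1 MAGEA4 window to 76.3% in TDRD9, beside a median of 58.7%.

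The starts of MAGEA4 and MAGEA12 shared a 10-base string, CCGGATGTGA, which contains the core read by ETS transcription factors. It is the longest string with that core common to all 7 windows of MAGEA4 and MAGEA12, was noticed in these sequences, and was then searched on both strands. It was in 42 of all 35116 windows (0.12%). A longer common string of 11 bases, CTGACTTGCGC, was in 17 windows, 12 of them of MAGE-A genes. Those 12 include the 7 windows from which it was taken. The copies are shown with 10 bases on either side and the string in capitals.

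MAGEA4, chrX:151912442-151912471, plus strand: cccaggtggcCCGGATGTGAcatccctgac

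MAGEA4, chrX:151912843-151912872, plus strand: ccccagctgcCCGGATGTGAtgccactgac

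MAGEA4, chrX:151916195-151916224, plus strand: ccccaggggcCCGGATGTGAtgccactgac

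MAGEA4, chrX:151916881-151916910, plus strand: tcccaggtgcCCGGATGTGAtgccactgac

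MAGEA4, chrX:151918233-151918262, plus strand: cctcaggggcCCGGATGTGAtgccactgac

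MAGEA12, chrX:152733733-152733762, plus strand: agtcacggggCCGGATGTGAcgccactgac

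The last copy serves both MAGEA12 starts, 14 and 119 bases upstream of them. In MAGEA4 the string began 22 to 45 bases before each start. Of the 42 windows, 13 belonged to 7 of the 10 MAGE-A genes with an entry. The other 3, MAGEA3, MAGEA6 and MAGEA8, did not hold it, and the string was absent from the windows of GTSF1, TDRD9 and TDRD12. The 13 include the 7 windows of MAGEA4 and MAGEA12 that defined the string. Some MAGE-A windows are also near-copies (MAGEA12 and MAGEA2, 89.6% identical), so nothing is read from the MAGE-A share. Of the other MAGE-A genes with the string, only MAGEA11 had a probe set of its own, with signals of 11.3 to 12.6 on the 4 arrays. Of those without the string, MAGEA6 had H1299 signals of 5793 and 6526 on an _x_at probe set, and MAGEA8 31.1 to 37.7 over all arrays. Whether the string goes with expression was not tested. The plain ETS string CCGGAA was in 1 member window, that of GTSF1 at base -12 (17.2% of all windows hold it on either strand). The string AACNGTC, a form of the MYB site, was in none of the 10 member windows and in 6.73% of all. Also searched were CACGTG, in 1 member window, that of TDRD12 (7.26% of all), and TATAAA, in none (11.5% of all). These are matches of letters and say nothing of binding.

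The arrays were comparable in level, with median signals of 73.3 to 75.4. KAT8, the siRNA target, fell from a signal of 402 to 106 in A549 and from 241 to 61.8 in H1299 (_s_at probe set; mean log2 change -1.62 ± 0.07, SD, n = 2 lines; limma adjusted p = 0.00525). A dimmer KAT8 probe set (_at) was at 83.8% of scramble in A549 and 64.5% in H1299 and did not pass (mean log2 -0.28; limma adjusted p = 0.256). The brighter one checks the source names of the arrays, since the treatment tag of 2 arrays names the other siRNA. Of the line markers, the E-cadherin gene CDH1 had signals of 1535 and 1562 in A549 against 8.04 and 7.61 in H1299. CDKN2A, on a locus deleted in A549, stood at 33.5 and 46.5 there and at 1317 and 1176 in H1299. The airway and alveolar markers NKX2-1, SFTPC, SFTPD and NAPSA had signals of 55.6 to 120 and SCGB1A1 16.5 to 27.0, whereas SFTPB gave 702 to 798 on an _x_at probe set, and none of these was called between the lines.

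The first comparison set the lines against each other, gene by gene. MAS5 signals are linear intensities, and differences are given as log2 of signal plus an offset of 29.06, the 20th percentile of all signals. Among the cancer-testis members, CTAG2 encodes LAGE-1, a close relative of the tumour antigen NY-ESO-1. Its probe set 215733_x_at gave signals of 23.2 (scramble) and 21.5 (hMOF siRNA) in A549, against 3728 and 3724 in H1299. Both H1299 arrays were high and both A549 arrays lay under the offset, and the log2 difference was 6.19 ± 0.03 (SD, n = 2 siRNAs). The other CTAG2 probe set, 207337_at, did not show this. It gave 71.6 and 74.4 in A549 and 88.0 and 76.7 in H1299, a log2 difference of 0.12 ± 0.13 (SD, n = 2). The suffix _x_at marks probes that can also match other transcripts, and which of the probe sets follows CTAG2 was not tested.

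MAGEA1, MAGEA4 and MAGEA12 belong to the MAGE-A family, whose proteins bind RING ubiquitin ligases and alter their targets. MAGEA1 (207325_x_at) gave 12.9 and 9.38 in A549 and 1455 and 1585 in H1299. Its H1299 arrays were high and its A549 arrays under the offset, with a log2 difference of 5.27 ± 0.17 (SD, n = 2). MAGEA4 (214254_at), the member of the family measured without the _x_at suffix, gave 23.7 and 26.9 in A549 and 3368 and 4579 in H1299. That is a log2 difference of 6.19 ± 0.25 (SD, n = 2). MAGEA12 (210467_x_at) gave 33.4 and 32.7 in A549, just above the offset, and 2843 and 3482 in H1299, a log2 difference of 5.68 ± 0.22 (SD, n = 2). MAGEA1 and MAGEA12 have no other probe set, so without _x_at probe sets MAGEA4 is the only cancer-testis member with a high H1299 signal.

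The piRNA-pathway members showed the same split, on probe sets with no such suffix. GTSF1 encodes a zinc finger protein that assists PIWI proteins. It gave 15.0 and 12.5 in A549 and 2423 and 2539 in H1299, with scramble and hMOF siRNA in that order (227711_at). The difference was 5.87 ± 0.11 on the log2 scale (SD, n = 2). TDRD9, an RNA helicase with a Tudor domain that partners the nuclear PIWI protein, had the lowest A549 signals, 7.54 and 8.18, against 1347 and 1180 in H1299 (228285_at; log2 5.13 ± 0.15, SD, n = 2). TDRD12, another Tudor-domain helicase, needed for secondary piRNA production in mice, had the highest ones, 56.2 and 43.8, against 3929 and 4423 in H1299 (215356_at; log2 5.74 ± 0.28, SD, n = 2). Its A549 arrays both lay above the offset.

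For the highest probe set of each of the 7 genes, both H1299 arrays lay above both A549 arrays, which 28.6% of all probe sets do. By limma 16.1% of all probe sets were called higher in H1299 and 16.0% higher in A549. Nothing is read from the members' side of this, since they were picked for it. Plain signal ratios of H1299 to A549 ran from 69.9 to 179 with scramble, and ratios of signal plus offset, over both siRNAs, from 34.9 to 73.0. Of the 14 A549 values of these probe sets, 10 lay under the offset, so the sizes are set in part by it, and their order is not firm. By the log2 difference the order ran CTAG2, MAGEA4, GTSF1, TDRD12, MAGEA12, MAGEA1 and TDRD9. Neighbours in that order differed by less than the larger of their SDs, except MAGEA4 and GTSF1, and MAGEA12 and MAGEA1. Among all 54613 probe sets the 7 ranked between 10 and 21 for this difference. Of the 21 probe sets down to TDRD9, only 10 have a single gene in the annotation, and 7 of these are the members. The members were picked for this difference and the lowest of them sets the cutoff. Their ranks and share thus follow from the choice, and nothing is read from them.

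**Figure D1:**
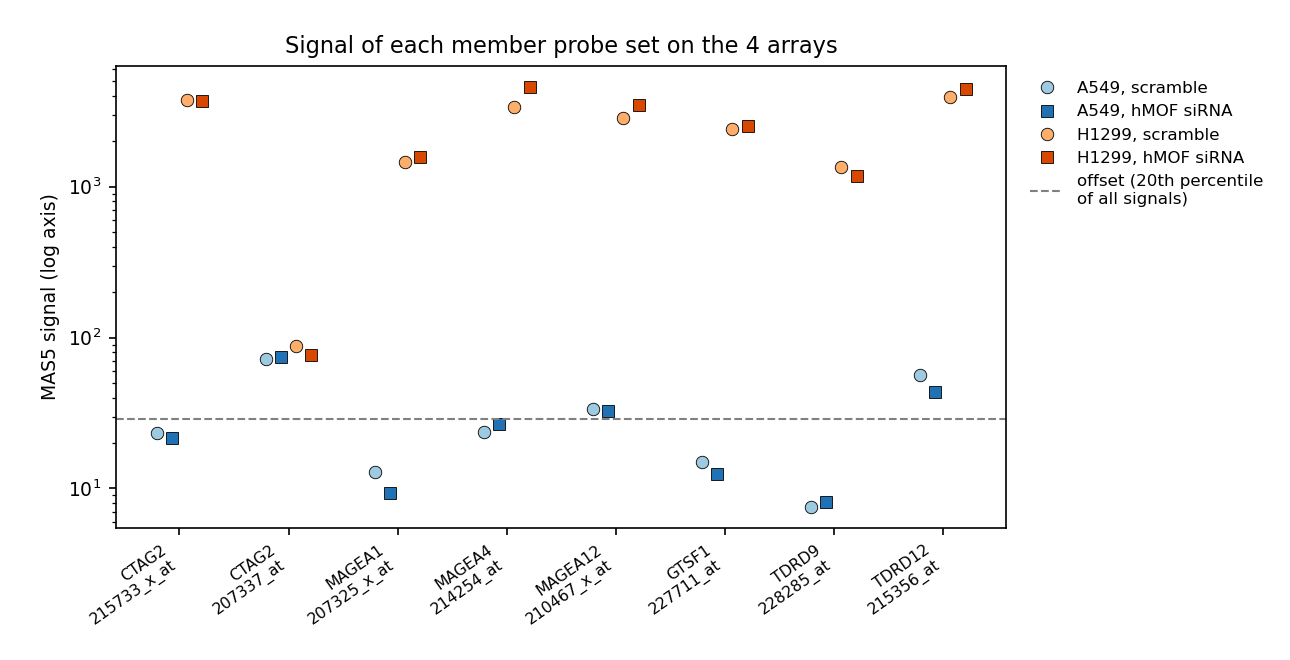
MAS5 signal (log axis) of the 8 probe sets of the members on the 4 arrays, 1 point per array, with the offset of 29.06 as a dashed line. H1299 points of 7 probe sets lie between 1180 and 4579 and their A549 points between 7.54 and 56.2, whereas the 4 points of CTAG2 probe set 207337_at lie between 71.6 and 88.0.

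The next comparison asked whether loss of hMOF changed the members. None of the 7 genes passed limma's test over both lines, and none reached 2-fold in either line. The lowest unadjusted limma p was 0.0685, so none lay under 0.05 before adjustment either. Over all probe sets, 3.92% passed (1.32% higher and 2.61% lower), and 2-fold changes made up 0.859% in A549 and 1.63% in H1299. MAGEA4 was nearest to the threshold. Its H1299 signal was 136% of scramble (3368 to 4579) and its A549 signal 114% (23.7 to 26.9), a mean log2 change of 0.26 ± 0.25 (SD, n = 2 lines; 95% interval -0.03 to 0.55; limma adjusted p = 0.354). It was the one member above 0 in both lines. MAGEA12 was at 122% of scramble in H1299, with a mean log2 change of 0.14 (95% interval -0.14 to 0.41; limma adjusted p = 0.671).

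For the remaining genes the H1299 signal with hMOF siRNA was 99.9% of scramble for CTAG2, 109% for MAGEA1, 105% for GTSF1, 113% for TDRD12 and 87.6% for TDRD9. TDRD9 was the lowest of the 7 there. Their mean log2 changes over both lines ran from -0.08 to -0.002, their intervals lay within -0.34 and 0.27, and their limma adjusted p ran from 0.815 to 0.997. These means give both lines equal weight, although most A549 values lie under the offset. For MAGEA1, GTSF1 and TDRD12 an A549 fall (log2 -0.125, -0.0836 and -0.2274) was averaged with an H1299 rise (0.1211, 0.0668 and 0.1697). For TDRD9 the signs were reversed (0.025 and -0.1871), and for CTAG2 both were below 0. Means near 0 thus do not by themselves show an unchanged H1299 signal. In H1299 alone, 5 of 7 genes were above 0, with a median log2 change of 0.12, and 51.1% of all probe sets were above 0 there, with a median of 0.01. In A549 2 of 7 were above 0, and 50.9% of all probe sets. Changes of the 7 genes, from -0.19 to 0.44, sat within the middle 90% of the 4544 probe sets whose H1299 mean signal was at least 1000 (-0.64 to 0.57). With 1 array per group the H1299 changes have no test of their own.

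**Figure D2:**
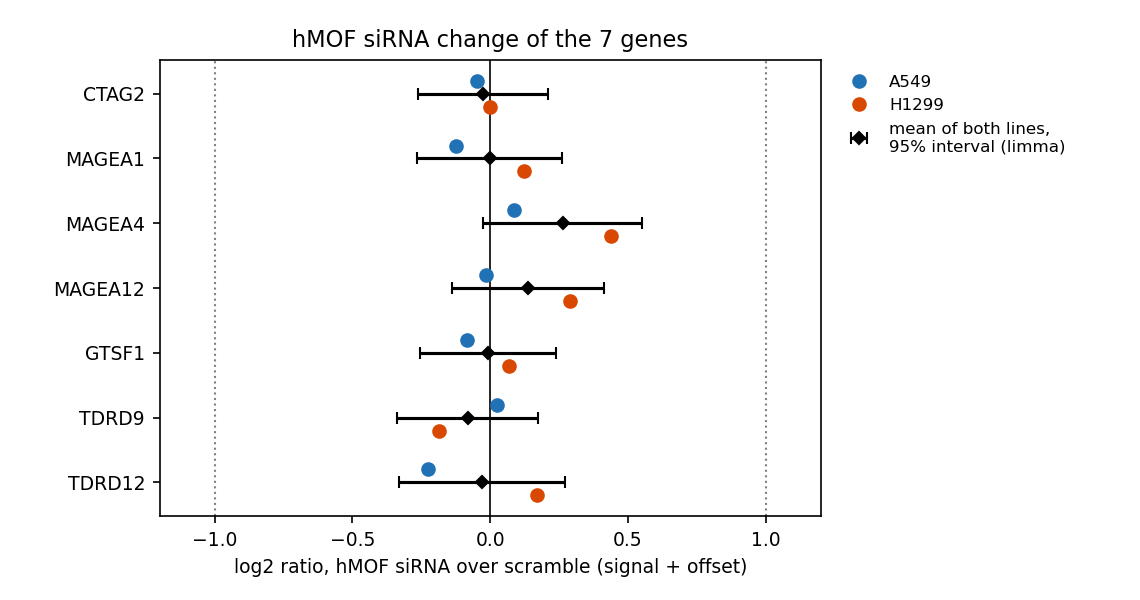
Log2 ratio of hMOF siRNA over scramble, of signal plus offset, for the highest probe set of each member, with A549 and H1299 as coloured points and the mean of both lines with its 95% limma interval in black. Dotted lines mark 2-fold, which no point reaches, and each interval includes 0.

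Genes whose pattern over the 4 arrays was most like that of the members were sought next, by the Euclidean distance between log2 values centred on each probe set's mean. The same 3 probe sets led for 6 of the 7 members. They belong to BEX1, a brain-expressed X-linked gene, HOXB2, a homeobox gene, and PLAC8, a cysteine-rich protein gene. PLAC8 was closest to MAGEA1 (distance 0.10), TDRD9 (0.34) and TDRD12 (0.38). BEX1 was closest to MAGEA4 (0.55) and MAGEA12 (0.30), and HOXB2 to CTAG2 (0.59) and GTSF1 (0.37). For TDRD9 the MADS-box factor gene MEF2C took the second place (0.52) in place of BEX1. PLAC8 had signals of 38.6 and 30.02 in A549 and 2478 and 2646 in H1299. Between members the distances ran from 0.18 (MAGEA12 and TDRD12) to 1.15 (MAGEA4 and TDRD9), so some were closer to these genes than to one another. With 4 arrays, this likeness is almost wholly the size of the difference between the lines.

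Position along the chromosome was then used, which played no part in choosing the members. The 2 nearest measured genes on either side of each member in the RefSeq gene table gave 27 different genes. Of these, 6 were higher in H1299 by limma, 10 higher in A549 and 11 not called, with a median log2 difference of -0.05. Over all probe sets, dim ones included, 16.1% and 16.0% were called, whereas each neighbour stands at its brightest probe set. The largest differences belonged to MAGE-A genes next to members. MAGEA10, beside MAGEA4 and GABRA3, gave 17.5 and 19.1 in A549 and 547 and 609 in H1299 (log2 3.68, SE 0.10; limma adjusted p = 2.175e-06). MAGEA6, beside MAGEA12, gave 820 and 746 in A549 and 5793 and 6526 in H1299 (log2 2.93, SE 0.11; limma adjusted p = 8.743e-06), on an _x_at probe set. The third cancer-testis neighbour, FATE1, was not called (log2 0.10).

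The 24 neighbours that are not cancer-testis genes had differences between -1.45 and 0.79. GABRA3, a GABA receptor subunit gene between MAGE-A genes, was the highest (21.6 and 21.8 in A549, 64.3 and 53.7 in H1299; log2 0.79; limma adjusted p = 0.00148). Around GTSF1, the integrin gene ITGA5 and the zinc finger gene ZNF385A were higher in A549, and NCKAP1L and PDE1B stood at 0.03 and 0.01. Around TDRD12, NUDT19 (log2 -0.97) and CEP89 (-1.21), and SLC7A9 (-0.48), were higher in A549, and RGS9BP was higher in H1299 (0.65). The 12 neighbours of GTSF1, TDRD9 and TDRD12 lay between -1.21 and 0.65, with 2 higher in H1299, 6 higher in A549 and 4 not called.

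**Figure D3:**
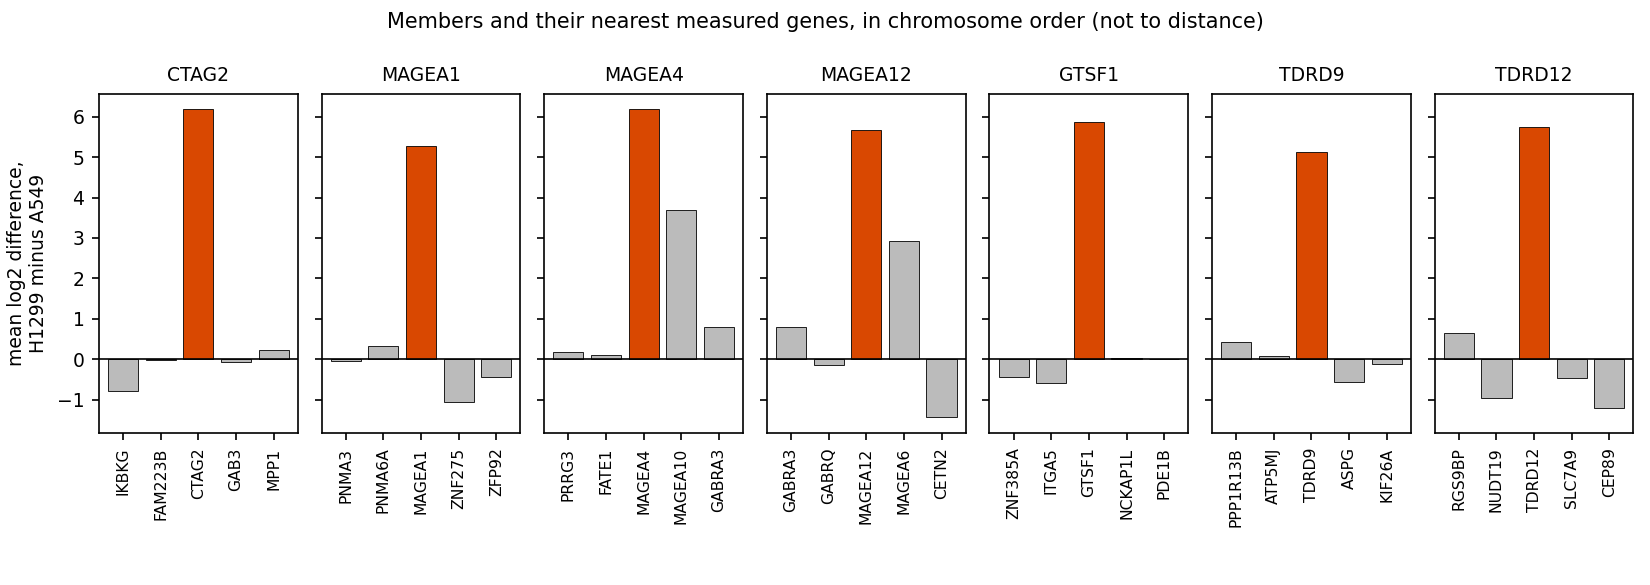
Mean log2 difference, H1299 minus A549, for each member (orange) and the 2 nearest measured genes on either side (grey), in chromosome order and not to distance; n = 2 siRNAs per bar. Members stand at 5.13 to 6.19, and the neighbours are led by MAGEA10 at 3.68 and MAGEA6 at 2.93.

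The neighbours also gave the siRNA effect around members that did not pass. Of the 27 genes, 5 fell with hMOF siRNA by limma and 0 rose. Over all probe sets, dim ones included, the shares were 2.61% and 1.32%, whereas each neighbour stands at its brightest probe set. The 5 calls lie close to the threshold and were not followed over the alternatives, so no excess of falls is read from them. NUDT19, directly beside TDRD12, and CEP89, the outer neighbour on its other side, fell (log2 -0.82 and -0.61; limma adjusted p = 0.0322 and 0.0412). PPP1R13B and KIF26A, the outer neighbours of TDRD9, fell as well (-0.64 and -0.65; limma adjusted p = 0.0441 and 0.0397). The genes directly beside TDRD9, ATP5MJ (-0.09) and ASPG (0.175), did not pass, nor did SLC7A9 (-0.28), which lies between TDRD12 and CEP89. ZNF275, beside MAGEA1, fell by 0.67 on the log2 scale (limma adjusted p = 0.0261). NUDT19 had signals of 2644 and 1774 in A549 and 1595 and 739 in H1299, lower with the siRNA in both lines, whereas TDRD12 next to it was at -0.23 and 0.17. The difference between a member and its neighbour was not tested.

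Other cancer-testis genes were taken from lists written with earlier results of these data known, so their line counts and p-values are not independent evidence. By limma 16.1% of all probe sets were higher in H1299 and 16.0% in A549. Those shares include dim probe sets and ones without a gene, whereas each list gene stands at its brightest probe set. Among fewer probe sets, with mean signals at or above the 50th percentile (78.1), 6915 were higher in H1299 and 6730 in A549. Shares were thus larger among brighter probe sets, and a list count above 16.1% is not read as an excess. Of 11 further MAGE-A genes, 4 had a probe set of their own, and 2 were higher in H1299, MAGEA10 and MAGEA6 as above. MAGEA6 differs from the members in having a clear A549 signal, and whether this comes from MAGEA6 or from another copy its probes match was not tested. MAGEA8 and MAGEA11 stood at -0.07 and 0.03 and were not called. The list's median log2 difference was 1.48, against -0.01 over all probe sets. That median falls in the gap between the 2 called and the 2 uncalled genes, so no shift of the whole family is read from it.

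Most other X-linked cancer-testis genes were not called. Of 35 measured, taking the chromosome from RefSeq, 3 (8.57%) were higher in H1299, 1 (2.86%) was higher in A549 and 31 were not called, with a median of 0.003. The 3 were PASD1, GAGE1 and IL13RA2, and the 1 was PLAC1, a placental gene (log2 -0.74; limma adjusted p = 0.00611). PASD1, an X-linked antigen with a PAS domain, gave 18.5 and 23.2 in A549 and 832 and 1133 in H1299 (log2 4.33, SE 0.11; limma adjusted p = 1.965e-06). GAGE1, of a family of tandem copies, gave 7.57 and 9.64 in A549 and 394 and 357 in H1299 (log2 3.42, SE 0.11; limma adjusted p = 3.611e-06). IL13RA2, a decoy receptor for interleukin-13, gave 5.08 and 8.69 in A549 against 166 and 224 in H1299 (log2 2.63). All A549 values of these 3 genes lay under the offset, which sets their sizes: over alternatives the difference ran from 3.73 to 5.55 for PASD1, 2.73 to 5.46 for GAGE1 and 1.98 to 4.86 for IL13RA2. Those not called included MAGEC1, MAGEC2, SSX1, PAGE1 and SAGE1, at log2 -0.26 to 0.18. On all 4 arrays 13 of the 35 lay under the offset. Copies that share probe sets are annotated to several genes at once and are not analysed here.

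Of 42 measured autosomal cancer-testis genes, 17 (40.5%) were higher in H1299, 4 (9.52%) higher in A549 and 21 not called, with a median of 0.24. The difference from the X-linked genes was not tested. DSCR8 differed most (59.7 and 101 in A549, 2489 and 1125 in H1299; log2 3.99, SE 0.34; limma adjusted p = 0.000239), on an _x_at probe set, with 3.68 to 4.43 over alternatives. TEX15, a testis protein of meiosis and piRNA silencing, stood at 2.22. CTCFL, the germline paralogue of the insulator protein CTCF, gave 16.0 and 16.2 in A549 and 121 and 363 in H1299 (log2 2.43, SE 0.29; limma adjusted p = 0.000958). TTK (1.30), OIP5 (1.21), KIF2C (1.15) and KNL1 (1.07), which are known for roles in chromosome segregation, were also higher in H1299. Of other genes with mitotic roles in the list, the kinase gene PBK was higher in A549 (-0.54) and CEP55 was not called (-0.12). Also higher in A549 were the demethylase gene KDM5B (-1.34), IGF2BP3 (-0.73) and TSGA10 (-0.46). PRAME, one of the most studied of these antigens, was bright in both lines (1778 and 2223, 2327 and 2556) and not called.

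The other genes of the piRNA pathway were mostly dim and not called. Of 32 measured among 35, 7 (21.9%) were higher in H1299, 1 higher in A549 and 24 not called, with a median of 0.04. Of the PIWI genes, PIWIL1 stood at 0.05, PIWIL2 at -0.05 and PIWIL4 at -0.33, none of them called. PIWIL1 signals were 39.1 to 53.0 on the 4 arrays, without a high array. The germ cell helicase gene DDX4 (0.12), MAEL (-0.02), MOV10L1 (0.02), TDRD1 (-0.23), TDRD5 (-0.08) and TDRD6 (-0.07) were not called either. No measured PIWI gene had a signal above 97.9 on any array.

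Those called higher in H1299 began with GPAT2, a mitochondrial acyltransferase homologue needed for piRNA production. It gave 37.4 and 42.9 in A549 and 851 and 896 in H1299 (log2 3.71, SE 0.10; limma adjusted p = 1.995e-06). MYBL1 encodes A-MYB, the factor that drives piRNA precursor and pathway genes in spermatocytes. Its highest probe set gave 274 and 182 in A549 and 2977 and 2149 in H1299 (log2 3.34, SE 0.10; limma adjusted p = 2.976e-06), and the difference was 1.18 when its 3 probe sets were averaged. TEX15 stood at 2.22 (1.31 averaged) and TCFL5, a spermatocyte transcription factor gene, at 1.43 (0.47 averaged). WDR77 (0.89) and HENMT1 (0.57), which encodes the enzyme that methylates piRNA ends, were smaller, as was KIF17 (0.38). NANOS3, a germ cell RNA-binding protein gene, was higher in A549 (-0.44).

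Meiosis and germ cell genes were mixed. Of 42 measured among 47, 9 (21.4%) were higher in H1299, 4 (9.52%) higher in A549 and 29 not called, with a median of 0.06. STAG3, the meiotic cohesin subunit, gave 61.1 and 61.4 in A549 and 801 and 1201 in H1299 (log2 3.48, SE 0.15; limma adjusted p = 1.236e-05). The synaptonemal complex genes SYCP2 (2.41, or 1.22 averaged over probe sets), SYCE1 (1.90) and SYCE2 (1.28) and the meiotic checkpoint gene HORMAD1 (1.78) were higher there as well. The germ cell specification genes TFAP2C (-1.49) and PRDM1 (-1.39) were higher in A549. Of the genes in these 5 lists, 8 stand in more than 1.

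**Figure D4:**
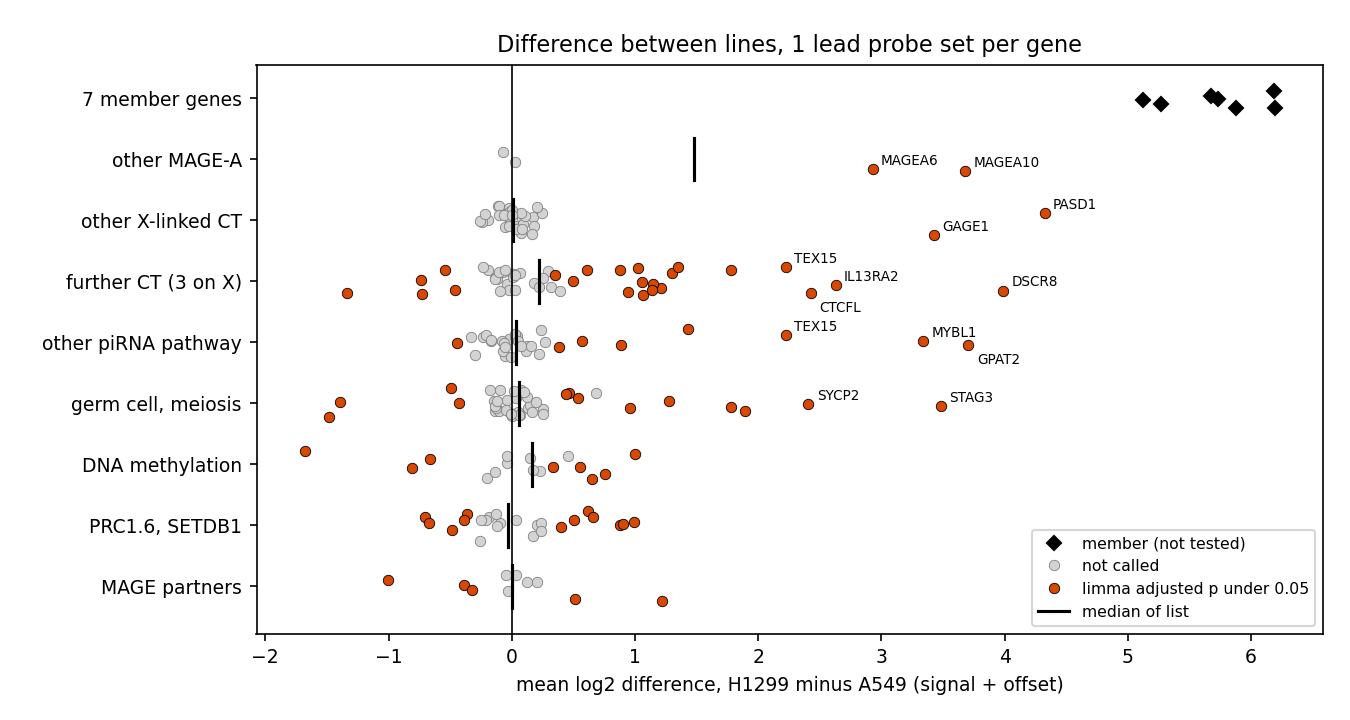
Mean log2 difference, H1299 minus A549, for 1 probe set per gene, with members as black diamonds, called genes in orange, others in grey and each list's median as a bar (vertical scatter within a list has no meaning). The members stand at 5.13 to 6.19, and the other germline genes reach 4.33 (PASD1). In the row of further cancer-testis genes 3 X-linked ones (IL13RA2, PLAC1, AKAP4) are drawn. The list medians lie near 0 apart from the other MAGE-A genes at 1.48, which falls between 2 called genes and 2 near 0.

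With hMOF siRNA, 2 of the 42 autosomal cancer-testis genes rose (HORMAD1 and SPA17, 4.76%) and 3 fell (SPAG1, KDM5B and KIF2C, 7.14%). Over all probe sets, dim ones included, the shares were 1.32% and 2.61%, whereas each list gene stands at its brightest probe set. Among the far fewer probe sets at or above the 70th percentile of signal (179), 551 rose and 1145 fell, so their shares were larger. No excess is read from the list counts. Of the list's calls by limma, that of KIF2C was lost under 11 of 11 alternatives, SPA17 under 7, HORMAD1 under 5, KDM5B under 3 and SPAG1 under 2. Of the 4 other MAGE-A and 35 X-linked genes, 0 passed. SPAG1 went from 274 to 88.2 in A549 and from 657 to 163 in H1299 (limma; mean log2 -1.60, SE 0.13; adjusted p = 0.00592). KDM5B fell from 1292 to 671 and from 548 to 223 (mean log2 -1.06; limma adjusted p = 0.00946). HORMAD1, also the 1 meiosis gene called, rose from 367 to 584 in A549 and from 1076 to 2575 in H1299 (limma; mean log2 0.93, SE 0.15; adjusted p = 0.0294, and 0.0184 to 1.0 over alternatives). In the piRNA list NANOS3 and HENMT1 rose, 0 fell and 30 did not pass. NANOS3 went from 93.7 to 258 and from 68.8 to 166 (mean log2 1.11, SE 0.11; limma adjusted p = 0.00787). HENMT1 went from 147 to 301 and from 270 to 399 (mean log2 0.71; limma adjusted p = 0.0346, and 0.0241 to 1.0 over alternatives). MYBL1 was at -0.52 and -0.47 and missed the threshold (limma adjusted p = 0.0503).

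Some germline list genes reached 2-fold in H1299 and not in A549, without passing the test over both lines. Over all probe sets 1.63% reached 2-fold in H1299. CTCFL stood at 0.01 in A549, where its signals of 16.0 and 16.2 lay under the offset. In H1299 it stood at 1.39, with signals of 121 and 363. SSX3 stood at 0.21 in A549 and 1.37 in H1299, and DSCR8 at 0.55 and -1.13, both on _x_at probe sets. None of these genes has a replicate in H1299. With no offset or without the line as a block no probe set was called for the siRNA, KAT8 included.

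**Figure D5:**
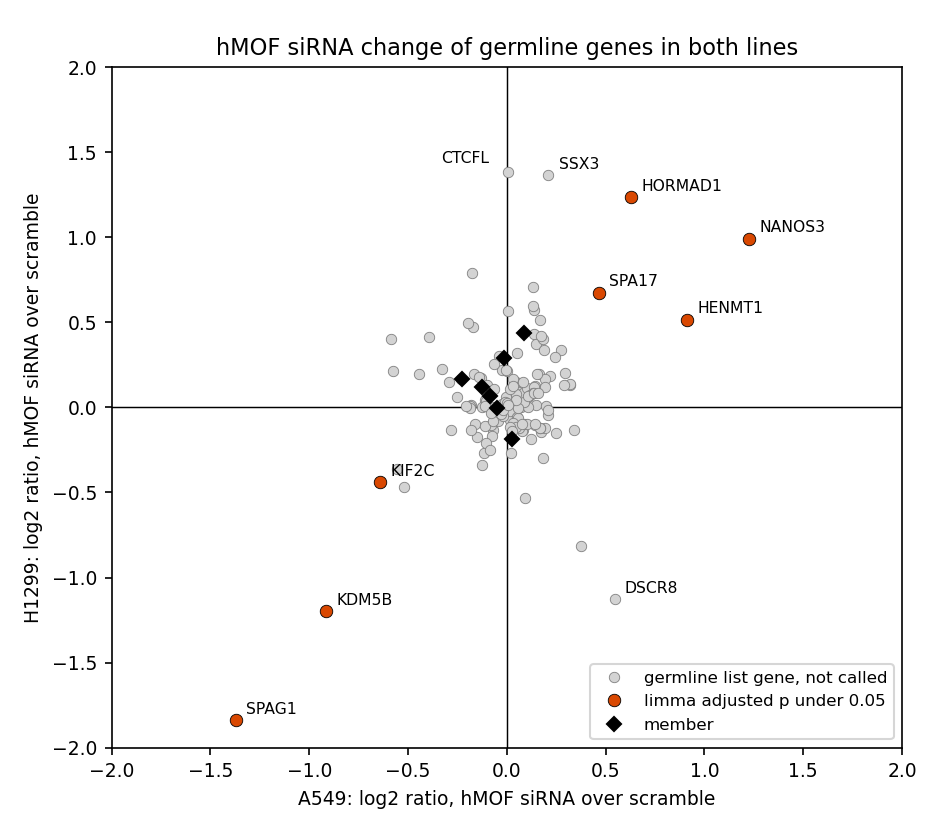
Log2 ratio of hMOF siRNA over scramble in A549 (horizontal) and H1299 (vertical) for the genes of the 5 germline lists, called genes in orange and members as black diamonds, 1 array pair per axis. The members lie near the origin, at -0.23 to 0.09 in A549 and at -0.19 to 0.44 in H1299. The called genes lie along the diagonal from SPAG1 to NANOS3 and HORMAD1. The test favours that position, since its residual is the disagreement between the lines, so no agreement is read from it.

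Genes known to act on germline promoters were examined last, beside the members. Of 16 measured genes of DNA methylation and demethylation, 5 (31.2%) were higher in H1299, 3 (18.8%) higher in A549 and 8 not called. Over all probe sets, dim ones included, the shares were 16.1% and 16.0%, and they were larger among brighter ones. The call of TET1, 1 of the 5, was lost under 7 of 11 alternatives and turned to -0.30 when its probe sets were averaged. The maintenance genes DNMT1 (2030 and 1811, 2846 and 3727; log2 0.76, limma adjusted p = 0.00789) and UHRF1 (0.66) were higher in H1299, as was the dioxygenase gene TET2. The de novo methyltransferase gene DNMT3B was higher in A549, with 651 and 744 against 243 and 160 in H1299 (log2 -1.68, SE 0.17; limma adjusted p = 0.000490). With hMOF siRNA the chromatin remodeller gene HELLS fell (log2 -0.90; limma adjusted p = 0.0186, and 0.0177 to 1.0 over alternatives). The thymine glycosylase gene TDG rose (0.78; limma adjusted p = 0.0315, and 0.0256 to 1.0 over alternatives).

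Of 24 measured repressors of germline genes in the PRC1.6 and SETDB1 complexes, 7 (29.2%) were higher in H1299, 5 (20.8%) higher in A549 and 12 not called, with a median of -0.03. Over all probe sets, dim ones included, 16.1% and 16.0% were called, and the shares were larger among brighter ones. HDAC1 (0.99), EHMT2 (0.90) and MGA, the scaffold of PRC1.6 (0.88), were higher in H1299, and CBX3 (-0.70) and MPHOSPH8 (-0.67) higher in A549. The call of WDR5 was lost under 5 of 11 alternatives, those of TFDP1 and TRIM28 under 3 and that of RYBP under 2. Those of HDAC1, HDAC2 and RING1 were lost under 1. With the siRNA TFDP2 fell (log2 -1.07; limma adjusted p = 0.0185, and 0.0128 to 1.0 over alternatives), 0 rose and 23 did not pass. Of 10 measured partners and substrates of MAGE proteins, TRIM27 (1.22) and PRKAA1 (0.51) were higher in H1299 and USP7 (-1.003), TRIM28 (-0.39) and PJA1 (-0.32) higher in A549, of which the PJA1 call was lost under 9 of 11 alternatives and that of TRIM28 under 3. PRKAA1, the AMPK catalytic subunit gene, fell with the siRNA (-0.54; limma adjusted p = 0.0398), a call lost under 8 of 11 alternatives. Whether any of these genes bears on the members was not tested.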

How the data were processed

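Total RNA of A549 and H1299 cells was measured on Affymetrix arrays, 1 per group. The authors deposited 1 linear intensity for each probe set, made with MAS5 per the submitters' processing notes, with no version or scaling target stated. Intensities of dim probe sets are the least precise, and detection calls were not used here. Groups follow each array's source name.

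Of 54675 probe sets, 62 controls were left out; 41091 of the rest had 1 gene in the platform annotation, 1801 several and 11721 none. Symbols were looked up in a RefSeq table (GRCh38.p14), which changed 0 of them and lacked 54 identifiers. Every signal had 29.06 added before log2, with no further scaling. All 54613 probe sets entered limma 3.58.1 (R 4.3.3; lmFit, eBayes) with terms for line and siRNA and no signal filter, because a filter keeps a silent gene only through the line where it is high (7 of the members' 8 probe sets would pass the 50th percentile). Benjamini-Hochberg adjusted p was held to 0.05. The fit has 1 residual degree of freedom, plus 5.46 prior ones. The lines are the only repeats for the siRNA, so p-values measure the spread between these arrays, which may be technical. The fit was also run on simulated arrays, with 1 noise level for all probe sets and the same change in both lines. The real arrays need not meet either, so no support for the calls is drawn from it.

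Members and lists were chosen with earlier results of these data known. The list written as autosomal cancer-testis genes (45 measured) held 3 X-linked ones, so these genes were regrouped by their RefSeq chromosome after the values were seen. Each gene was represented by its probe set with the highest mean signal. Named are the members, KAT8, the 3 nearest probe sets by pattern, and some of the line markers and of the 2 neighbours on each side. From each of 8 lists the called genes were eligible, at most the 6 largest each way, and not all are named. ATAD2, MND1 and ZBTB33 are among those left out. Examples that were not called, and TTK, OIP5, KIF2C, KNL1, KIF17 and CEP55, were named after their values were seen. So were the siRNA values of CTCFL, SSX3, DSCR8 and MYBL1, and the string CCGGATGTGA. As alternatives, the offset was left out or set at the 40th percentile (56.5), and signal filters at the 50th and 70th percentile (78.1 and 179), quantile normalization, median centring, 1 probe set per gene with a filter, averaged probe sets, no _x_at probe sets, eBayes with trend, no block, and each line or siRNA alone were tried. Figures used matplotlib 3.10.9.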

Additional observations from a re-analysis of the deposited data

Results flagged for a closer look

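The siRNA changes of 5 members pointed in opposite directions in the lines. The difference between lines was not tested, with 1 array pair each. In A549 the signals of MAGEA1, GTSF1 and TDRD9 lay under the offset and those of MAGEA12 just above it. The A549 signs of these genes thus come from dim signals. MAGEA1 was at -0.12 in A549 and 0.12 in H1299, MAGEA12 at -0.0156 and 0.29, GTSF1 at -0.0836 and 0.0668, TDRD9 at 0.025 and -0.19, and TDRD12 at -0.23 and 0.17 (log2). Among the called list genes with changes of at least 0.5 each way, DSCR8 was at 0.55 in A549 and -1.13 in H1299, on an _x_at probe set.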

How the results depend on the processing

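Over 11 alternatives (10 for MAGEA1 and MAGEA12, which have no probe set besides _x_at ones), 0 members passed limma's test for the siRNA, and the MAGEA4 adjusted p ran from 0.282 to 1.0. The sign turned for MAGEA1 (0.0223) and GTSF1 (0.0075) with the offset at the 40th percentile. Line differences of members stayed at or above 4.3566, except CTAG2, at 3.16 with averaged probe sets and 0.12 without _x_at ones. With averaged probe sets TET1 turned to -0.30 and TFDP1 to 0.075 between the lines. Probe sets higher and lower with hMOF siRNA numbered 720 and 1423. They numbered 0 and 0 with no offset and with no block, 308 and 717 with the offset at the 40th percentile, 149 and 309 with 1 probe set per gene and the filter at the 50th percentile together, and 81 and 149 with averaged probe sets. The counts higher in H1299 and in A549 were 8778 and 8725, against 4961 and 4787 with the filter at the 70th percentile, 3225 and 3499 with 1 probe set per gene and the filter at the 50th percentile together, 3486 and 3651 averaged, and 5162 and 5317 with no block. The 2-fold counts up and down in A549, 194 and 275, became 509 and 595 with no offset, 92 and 146 with 1 probe set per gene and the filter at the 50th percentile together and 51 and 74 averaged. In H1299, 339 and 550 became 799 and 979, 156 and 284, and 99 and 118 in that order. Fewer probe sets enter with a filter or 1 value per gene, and the cause of the other shifts was not tested. In the list written as autosomal cancer-testis genes, which holds 3 X-linked ones, those higher in H1299 went from 18 to 11 with the filter at the 70th percentile, and other MAGE-A genes from 2 to 1 without _x_at probe sets. With 1 array per group, precision is limited by their number. The line was the block in the siRNA fit, and the labels carry no replicate numbers beyond it.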
